A study of Mus musculus with 36 samples.

Results

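The subject here is the difference in the transcriptional response to contraction between C2C12 myotubes with and without knockdown (KD) of the long noncoding RNA *Tug1*, measured gene by gene at 2 times. All 36 libraries of the series entered, 6 for each of 6 groups, and 13995 of the 55416 genes in the count table reached 1 RPM (counts per 1000000 of a library) in 12 or more libraries and were tested. C2C12 is an established mouse myoblast line, and the cells had been differentiated into myotubes before transfection with an antisense locked nucleic acid (LNA). The groups labelled Rest Control, EPS 0h Control and EPS 3h Control received a negative control LNA, and the groups labelled Rest Tug1-KD, EPS 0h Tug1-KD and EPS 3h Tug1-KD received an LNA against *Tug1*. Rest myotubes had electrodes in the medium without current. EPS 0h myotubes were harvested directly after 3 h of electrical pulse stimulation (EPS), and EPS 3h myotubes after the same stimulation and 3 h of recovery. Every library therefore came from transfected cells of 1 cell line, and each LNA arm rested on 1 LNA sequence. The response difference of a gene is its log2 fold change (log2FC) from Rest to EPS in *Tug1* KD minus the same log2FC in control. A positive value means a larger rise or a smaller fall in *Tug1* KD, and a value of 1 means that the fold changes of the 2 arms differed 2-fold.

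Contraction of muscle cells raises cytosolic calcium, consumes ATP and loads the sarcomere mechanically. Cultured myotubes driven by electrical pulses answer with immediate early transcription factors, chaperones and metabolic regulators, and the genes that rise directly after stimulation are partly distinct from those that rise during recovery. *Tug1* is a conserved, largely nuclear long noncoding RNA that has been studied as a regulator of transcription. An interaction of EPS with the LNA arm asks whether the knockdown changed the difference between EPS and Rest. Both times were set against the same Rest group of each arm. At EPS 3h, longer culture and LNA exposure therefore cannot be told apart from stimulation. The interaction differs from the question whether the arms differed after stimulation. A gene that the knockdown moves equally at Rest and after EPS has a response difference of 0.

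The libraries held 17005079 to 24181167 counts on genes. *Tug1* itself ranged from 38.6 to 58.3 RPM in the Rest controls and from 24.0 to 33.3 RPM in the Rest KD libraries, which did not overlap. At EPS 3h the ranges were 54.6 to 107 RPM in control and 40.0 to 84.6 RPM in *Tug1* KD and overlapped. *Tug1* rose with EPS in both arms, and its response difference did not pass the edgeR quasi-likelihood test, with 0.23 at EPS 0h (FDR = 0.988) and 0.30 at EPS 3h (FDR = 0.906). The 8 myotube markers summed to between 13990 and 20650 RPM in every library, and the sums of 5 markers each stayed at or under 4.32 RPM for adipocytes, 9.95 RPM for osteoblasts, 6.93 RPM for macrophages and 18.3 RPM for endothelial cells, with no marker at 0 in all libraries. The endothelial sum rose with EPS in both arms, from 2.40 to 3.42 RPM in Rest control to 7.25 to 18.3 RPM in EPS 3h control and from 2.26 to 3.34 RPM in Rest KD to 11.3 to 17.5 RPM in EPS 3h KD. Markers of undifferentiated myoblasts, 6 genes, were higher than these sets and summed to 137 to 176 RPM in Rest control. Their sums were 175 to 210 RPM in EPS 0h control and 123 to 178 RPM in EPS 3h control. In Rest, EPS 0h and EPS 3h KD they were 123 to 154, 155 to 201 and 123 to 193 RPM. The macrophage sum was 3.79 to 6.93 RPM in Rest control and 1.99 to 2.96 RPM in Rest KD. Of its 5 markers only *Cd68*, at 1.03 to 5.44 RPM over the libraries, was expressed enough to be tested. In bulk libraries, fewer cells of a type and less RNA per cell cannot be told apart. The study's methods describe 2 independent experiments of 3 wells. The labels number the replicates 1 to 6 without naming the experiment, so replicates 1 to 3 and replicates 4 to 6 are compared below as sets of libraries. Nothing in the labels says which wells share a culture, and p-values measure the spread between these libraries.

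The responses of the 2 arms to EPS resembled each other across genes. At EPS 0h, 3420 genes rose and 3562 fell in control at an FDR under 0.05, against 3907 and 4055 in *Tug1* KD. At EPS 3h the counts were 4146 and 4422 in control and 4073 and 4514 in *Tug1* KD. Across the 13995 genes, the log2FC of the 2 arms, which share no library, correlated with r = 0.953 at EPS 0h and r = 0.972 at EPS 3h. The response differences were small beside these responses. Their standard deviation over genes was 0.251 at EPS 0h and 0.262 at EPS 3h, against 0.744 and 1.03 for the control response.

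**Figure D1:**
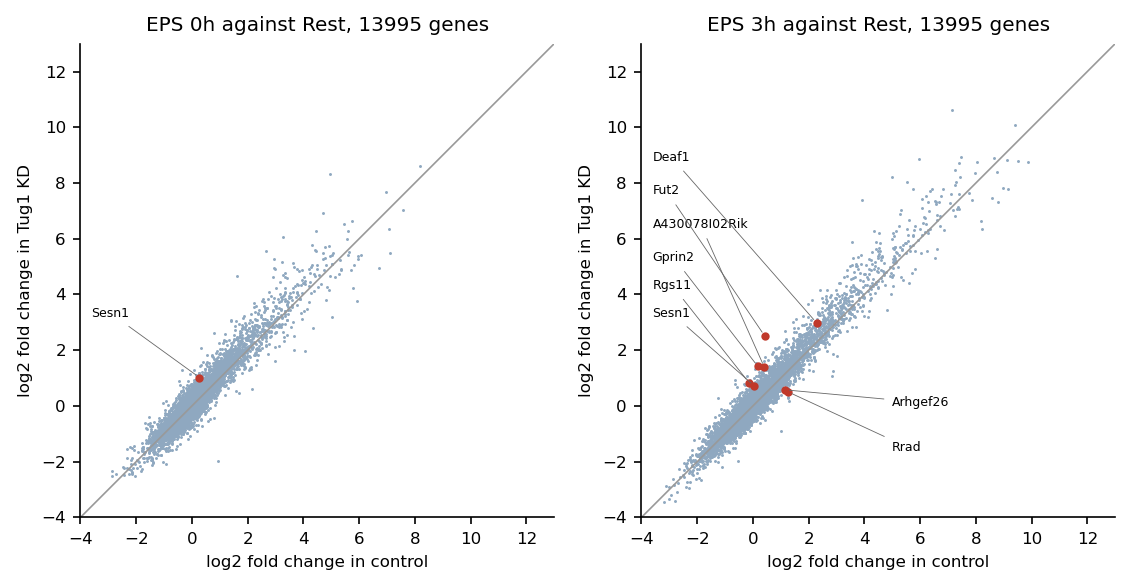
Each point is one of 13995 genes, with its log2 fold change from Rest in control myotubes on the x axis and in *Tug1* KD myotubes on the y axis, at EPS 0h (left) and EPS 3h (right). The grey line marks equal responses, red points are the genes whose response difference passed an FDR of 0.05, and the points lie along the line with r = 0.953 and r = 0.972.

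Few response differences passed the test. At EPS 0h, 1 gene had a larger rise or smaller fall in *Tug1* KD at an FDR under 0.05 (0.00715% of those tested) and 0 had a smaller rise or larger fall (0%), while 640 genes (4.57%) had an unadjusted p under 0.05 by the edgeR quasi-likelihood test. At EPS 3h, 6 genes passed above control (0.0429%) and 2 below (0.0143%), and 818 genes (5.84%) had an unadjusted p under 0.05. DESeq2 called 4 above and 0 below at EPS 0h and 21 above and 7 below at EPS 3h, and limma-voom called 2, 0, 8 and 2. A median gene differed by 0.113 at EPS 0h and by 0.114 at EPS 3h in absolute log2, below the median standard error (SE) of 0.162 and 0.163. The difference lay within 0.32 of 0 for 87.5% of the genes at EPS 0h and for 87.0% at EPS 3h. The 95% confidence interval lay within 1 of 0 for 89.9% and 89.2%. Differences above 1 in size were found in 101 genes at EPS 0h and 123 genes at EPS 3h, most of them with a larger rise or smaller fall in *Tug1* KD (78 and 106). Of these genes 90 and 118 averaged under 5 RPM, which holds for 24.1% of all genes tested.

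The gene that passed at both times was *Sesn1*, which encodes sestrin 1, a stress-induced inhibitor of mTORC1 signalling and a known target of p53 and FOXO factors. In control myotubes the lowest, median and highest *Sesn1* levels were 47.9, 55.2 and 59.8 RPM at Rest, 52.3, 67.7 and 81.1 RPM at EPS 0h and 44.0, 54.1 and 70.3 RPM at EPS 3h. In *Tug1* KD they were 55.7, 67.3 and 74.5 RPM at Rest, 95.4, 136 and 188 RPM at EPS 0h and 82.9, 109 and 151 RPM at EPS 3h. All stimulated KD libraries lay above all control libraries of the same time, whereas the Rest libraries of the arms overlapped. *Sesn1* rose by a log2FC of 0.27 in control and 1.02 in *Tug1* KD at EPS 0h, a response difference of 0.75 (SE 0.123, 95% confidence interval 0.50 to 1.00, FDR = 0.0107). At EPS 3h the log2FC was 0.05 in control and 0.72 in *Tug1* KD, a difference of 0.68 (SE 0.123, FDR = 0.0302). The difference was positive for 6 of 6 replicate numbers at both times, between 0.51 and 1.00 at EPS 0h and between 0.47 and 0.90 at EPS 3h. Over all genes tested, 6.15% at EPS 0h and 5.92% at EPS 3h had the same sign in 6 of 6. *Sesn1* and the genes below were called from these same libraries, so such agreement follows in part from the choice. At EPS 0h, replicates 1 to 3 gave 0.83 and replicates 4 to 6 gave 0.68. The gene lies on chromosome 10, 41685931 to 41784423 on the plus strand of GRCm39.

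*Deaf1*, which encodes a DNA-binding transcription factor, rose with EPS in both arms and rose more in *Tug1* KD at EPS 3h. Its lowest, median and highest levels were 21.6, 25.9 and 30.0 RPM in Rest control and 98.5, 128 and 151 RPM in EPS 3h control, against 18.1, 23.5 and 23.8 RPM in Rest KD and 142, 174 and 228 RPM in EPS 3h KD. The stimulated arms overlapped between 142 and 151 RPM. The response difference was 0.70 (SE 0.135, FDR = 0.0351), with values per replicate number from 0.09 to 1.13, all positive. At EPS 0h it was 0.56 and did not pass (FDR = 0.283). *Deaf1* lies on chromosome 7, 140877090 to 140908133, minus strand.

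Of the genes with a smaller response in *Tug1* KD, *Rrad* encodes a small GTPase of the RGK family that inhibits voltage-gated calcium channels, and *Arhgef26* encodes a guanine nucleotide exchange factor. *Rrad* started higher in *Tug1* KD, with a lowest, median and highest level of 30.4, 37.6 and 40.8 RPM at Rest against 13.7, 16.8 and 20.8 RPM in control. At EPS 3h it stood at 47.6, 54.1 and 56.1 RPM in *Tug1* KD and 27.6, 39.8 and 54.4 RPM in control, so that the Rest groups were apart and the stimulated groups overlapped. Its log2FC was 1.26 in control and 0.50 in *Tug1* KD, a difference of -0.76 (SE 0.155, FDR = 0.0473) that was negative for 6 of 6 replicate numbers. *Arhgef26* went from 12.9, 18.7 and 26.0 RPM at Rest to 26.2, 42.9 and 56.9 RPM at EPS 3h in control, and from 14.8, 23.3 and 28.5 RPM to 20.8, 35.4 and 42.8 RPM in *Tug1* KD. The arms overlapped in level at Rest and at EPS 3h, and the difference between the responses was -0.59 (SE 0.115, FDR = 0.0382), from -0.90 to -0.46 over the replicate numbers. The locus of *Rrad* is 105354695 to 105357990 on chromosome 8, minus strand, and that of *Arhgef26* is 62245765 to 62369842 on chromosome 3, plus strand.

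The other 4 genes that passed at EPS 3h averaged under 5 RPM in every group and were singled out after their values were seen. *Fut2*, a fucosyltransferase gene on chromosome 7 (45298015 to 45315818, minus strand), had the smallest FDR. It ranged from 1.51 to 2.72 RPM in Rest control and from 1.54 to 4.10 RPM in EPS 3h control, and from 0.32 to 0.813 RPM in Rest KD and from 2.63 to 4.16 RPM in EPS 3h KD, where a KD library held as few as 6 counts at Rest and 47 at EPS 3h. The arms did not overlap at Rest and overlapped at EPS 3h. Its response difference was 2.11 (SE 0.269, FDR = 7.37e-05) at EPS 3h and 1.38 at EPS 0h (FDR = 0.167). *Rgs11* and *Gprin2*, which encode a regulator of G protein signalling and a G protein-regulated inducer of neurite outgrowth, had differences of 0.99 (SE 0.188, FDR = 0.0351) and 1.26 (SE 0.258, FDR = 0.0473), and the lncRNA *A430078I02Rik* had one of 0.98 (SE 0.201, FDR = 0.0473). At Rest, *Tug1* KD stood below control for *Fut2*, *Rgs11*, *Gprin2* and *A430078I02Rik*, with a log2FC of -1.72, -1.11, -0.71 and -1.12. At EPS 3h the log2FC between the arms was 0.39, -0.12, 0.55 and -0.14.

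**Figure D2:**
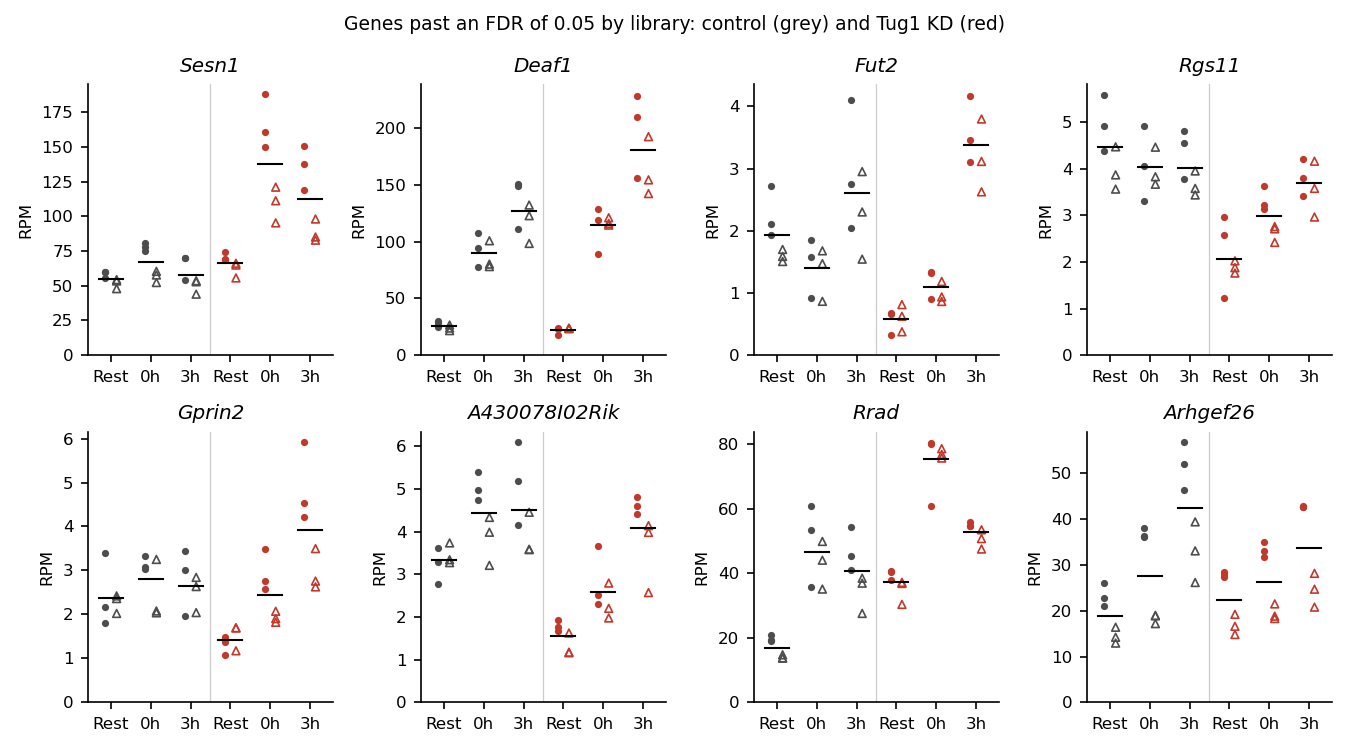
Each panel plots the RPM of 1 gene that passed an FDR of 0.05 in every library, with Rest, EPS 0h and EPS 3h of control (grey) to the left and of *Tug1* KD (red) to the right. Filled circles are replicates 1 to 3, open triangles replicates 4 to 6 and black bars the means of 6 libraries. *Sesn1* separates the stimulated arms without overlap, and *Fut2* and *Rgs11* are lowest in Rest KD.

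These calls rested on the replicate number as a block in the fit. Without the block, *Fut2* at EPS 3h alone passed (FDR = 0.00204) and *Sesn1* did not (FDR = 1.00 at EPS 0h and 0.794 at EPS 3h), while the log2 values of the 9 calls kept their sign under all 19 alternatives. Leaving out the libraries of 1 replicate number at a time, *Fut2* at EPS 3h passed in 6 of 6 fits. *Sesn1* at EPS 0h did not pass without replicate 1 (FDR = 0.283), 3 (0.0731), 4 (0.11) or 6 (0.0851), and at EPS 3h it passed only without replicate 6 (0.0381). *Deaf1* passed only without replicate 5 (0.0201), and the other calls passed in none of these fits, with an FDR from 0.0549 to 0.241 for *Arhgef26* and from 0.0516 to 0.344 for *Rrad*.

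Tested at both times together, *Fut2* (FDR = 0.000421) and *Sesn1* (FDR = 0.00493) passed, 0.0143% of the genes. The change of the response difference from EPS 0h to EPS 3h passed for 0 genes (0%) by edgeR and for 0 by DESeq2 and limma-voom, with 306 genes (2.19%) at an unadjusted p under 0.05 in edgeR. The 2 times share the Rest libraries, so their differences are given side by side and were not correlated. *Fut2* changed from 1.38 to 2.11, *Deaf1* from 0.56 to 0.70, *Sesn1* from 0.75 to 0.68, *Rrad* from -0.44 to -0.76 and *Arhgef26* from -0.28 to -0.59.

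The genes next in rank, which did not pass, were taken as those of lowest p with at least 5 RPM in a group and the same sign in both sets of replicates. Above control at EPS 0h these 9 genes had differences from 0.41 to 1.95 with an FDR from 0.130 to 0.283. The sign was the same in 6 of 6 replicate numbers for 8 of them, and for 6.15% of all genes tested. Since these genes were chosen from the same libraries, their agreement in sign follows in part from the choice. *Mx2*, an interferon-induced dynamin-like GTPase, ranged from 2.92 to 8.64 RPM in Rest control and reached a median of 21.7 and a highest level of 38.1 RPM in EPS 0h control. In *Tug1* KD it ranged from 3.52 to 11.3 RPM at Rest and from 49.7 to 93.6 RPM at EPS 0h. The Rest groups overlapped and the EPS 0h groups did not, and the difference was 1.10 at EPS 0h (FDR = 0.130) and 1.03 at EPS 3h (FDR = 0.0650). *Ppp1r3c*, a glycogen-targeting subunit of protein phosphatase 1, ranged from 4.80 to 6.23 RPM in Rest control, 19.5 to 29.3 RPM in EPS 0h control, 4.33 to 4.92 RPM in Rest KD and 29.4 to 45.3 RPM in EPS 0h KD, and the EPS 0h ranges met without overlap. At EPS 3h they overlapped, at 7.97 to 16.8 RPM in control and 9.61 to 33.5 RPM in *Tug1* KD. Its difference was 0.72 at EPS 0h (FDR = 0.283) and 0.86 at EPS 3h (FDR = 0.0638). The lncRNA *Mirt1* had 1.07 at EPS 0h, the histone gene *H2ac8* 1.95, *Tent5c*, a noncanonical poly(A) polymerase, 0.81, and *Abra*, which encodes a muscle actin-binding protein, 0.59. *Adpgk*, an ADP-dependent glucokinase, and *Gm44777* had 0.41 and 0.92, and *Deaf1*, described above, was the remaining gene of the 9.

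At EPS 3h the 8 genes of this kind above control had differences from 0.57 to 1.03 with an FDR from 0.0638 to 0.113. Beside *Mx2* and *Ppp1r3c* they were the angiogenic ligand gene *Angpt2* (0.97) and receptor gene *Flt1* (0.83), the RNA-binding protein gene *Rbm47* (0.95), *Odf3l1* (0.77), *Csrnp2* (0.57) and *Fhdc1* (0.57). The endothelial marker sum rose with EPS in both arms, and its part in the *Angpt2* and *Flt1* values was not tested. Below control the values were smaller in size. The 10 genes at EPS 0h ranged from -0.89 to -0.26 with an FDR from 0.283 to 0.737, among them *Fkbpl* (-0.89), *Fndc10* (-0.87), the ephrin ligand gene *Efna1* (-0.66) and the SERTA domain coregulator genes *Sertad1* (-0.66) and *Sertad3* (-0.49). *Sertad1* was at a mean of 55.9 RPM in Rest control and 32.2 RPM in EPS 0h control, and at 40.3 RPM in Rest KD and 14.7 RPM in EPS 0h KD. The 8 genes at EPS 3h ranged from -0.88 to -0.32 with an FDR from 0.112 to 0.255. They included *Cavin4*, a muscle-enriched component of caveolae (-0.32), *Rdh10*, a retinol dehydrogenase (-0.35), the FOXO-responsive gene *Depp1* (-0.80) and the small GTPase gene *Rasl11b* (-0.88). *Cavin4* was at a mean of 386 and 479 RPM in Rest and EPS 3h control and 434 and 431 RPM in *Tug1* KD.

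The rise of the responding genes was larger in *Tug1* KD mainly in replicates 1 to 3. Genes whose response averaged over both arms passed an FDR of 0.01 with a log2FC above 1 in size numbered 1022 higher and 328 lower at EPS 0h and 1426 higher and 656 lower at EPS 3h. The higher genes rose by a median log2FC of 1.59 in control and 1.84 in *Tug1* KD at EPS 0h, and by 1.79 and 2.04 at EPS 3h. The median difference over these genes was 0.643, 0.385 and 0.430 in replicates 1, 2 and 3 at EPS 0h, and -0.137, 0.157 and 0.039 in replicates 4, 5 and 6. At EPS 3h it was 0.157, 0.599 and 0.515 in replicates 1 to 3 and 0.026, 0.128 and -0.132 in replicates 4 to 6. The lower genes showed little of this, with a median log2FC of -1.22 in control and -1.27 in *Tug1* KD at EPS 0h and of -1.30 and -1.28 at EPS 3h.

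Choosing the genes in one set and measuring them in the other gave the same picture. The 917 genes that rose in replicates 4 to 6 at EPS 0h had a median log2FC of 1.62 in control and 2.18 in *Tug1* KD when measured in replicates 1 to 3, and 86.9% rose more in *Tug1* KD. The 1267 genes chosen in replicates 1 to 3 had 1.36 in control and 1.35 in *Tug1* KD in replicates 4 to 6, and 45.2% rose more in *Tug1* KD. At EPS 3h the median difference was 0.473 over 1329 genes in replicates 1 to 3 and -0.040 over 1621 genes in replicates 4 to 6.

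A response score for each library, the mean log2 RPM of the genes higher at both times minus that of the genes lower at both times, set to 0 in Rest control, showed where the arms parted. In replicates 1 to 3 the mean score was 0.11 in Rest control and -0.16 in Rest KD, rising to 3.26 in control and 3.53 in KD at EPS 0h and to 4.34 in control and 4.62 in KD at EPS 3h. In replicates 4 to 6 it was -0.11 in Rest control and 0.15 in Rest KD, rising to 2.85 in control and 3.25 in KD at EPS 0h and to 3.88 in control and 4.23 in KD at EPS 3h. The mean KD score thus lay above control after EPS in both sets. At Rest the mean lay below control in replicates 1 to 3 and above it in replicates 4 to 6. Single replicate numbers did not all follow their set mean. Replicate 1 at EPS 3h had 4.77 in control and 4.62 in KD, and replicate 5 at Rest had -0.096 in control and -0.109 in KD. Subtracting Rest gave a mean difference of 0.54 in replicates 1 to 3 and 0.15 in replicates 4 to 6 at EPS 0h, and of 0.55 and 0.10 at EPS 3h. Over all 6 numbers it was 0.34 ± 0.28 (SD, n = 6) at EPS 0h and 0.33 ± 0.33 (SD, n = 6) at EPS 3h, with 5 of 6 values positive at each time.

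**Figure D3:**
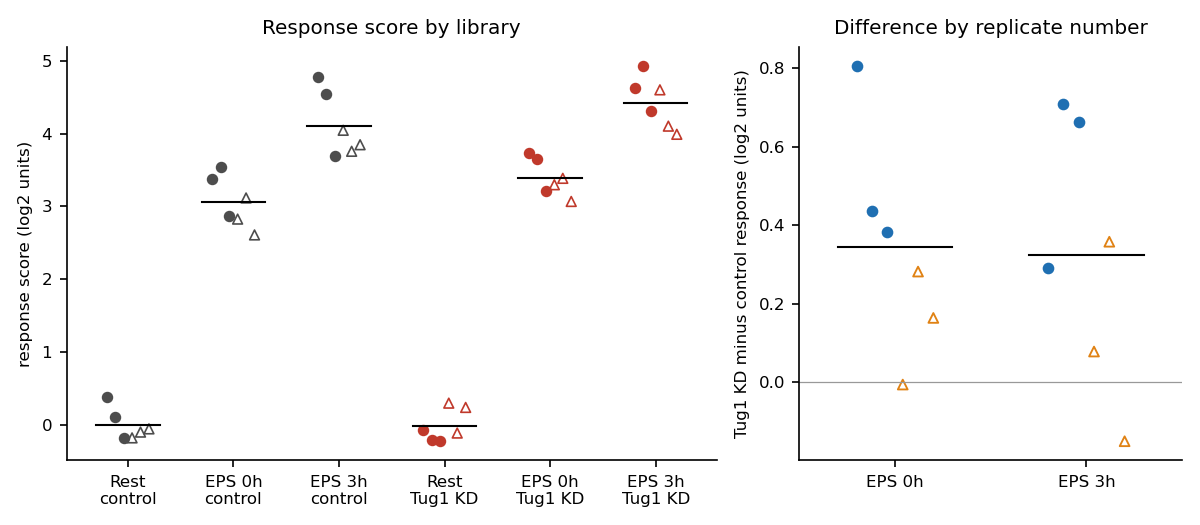
The left panel plots the response score of each library in log2 units, with filled circles for replicates 1 to 3, open triangles for replicates 4 to 6 and bars for the mean of 6. The right panel plots the EPS minus Rest difference of *Tug1* KD minus that of control for each replicate number, where replicates 1 to 3 average 0.54 and 0.55 and replicates 4 to 6 average 0.15 and 0.10.

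Gene by gene, the response differences of the sets did not agree. The sets share no library, so a difference that recurs would give a positive correlation. Between replicates 1 to 3 and replicates 4 to 6, r was -0.013 at EPS 0h and -0.067 at EPS 3h over 13995 genes, and -0.049 and -0.306 over the 9247 genes that averaged 10 RPM or more. The sign was the same in 46.8% of the genes at EPS 0h and 41.1% at EPS 3h. The responses themselves did recur, with r = 0.863 for control and 0.839 for *Tug1* KD at EPS 0h and r = 0.931 and 0.928 at EPS 3h. The KD effect within a condition recurred after EPS, with r = 0.756 at EPS 0h and 0.608 at EPS 3h, and less at Rest, where r was 0.284. Genes are not independent replicates, and these correlations are descriptions of the sets.

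**Figure D4:**
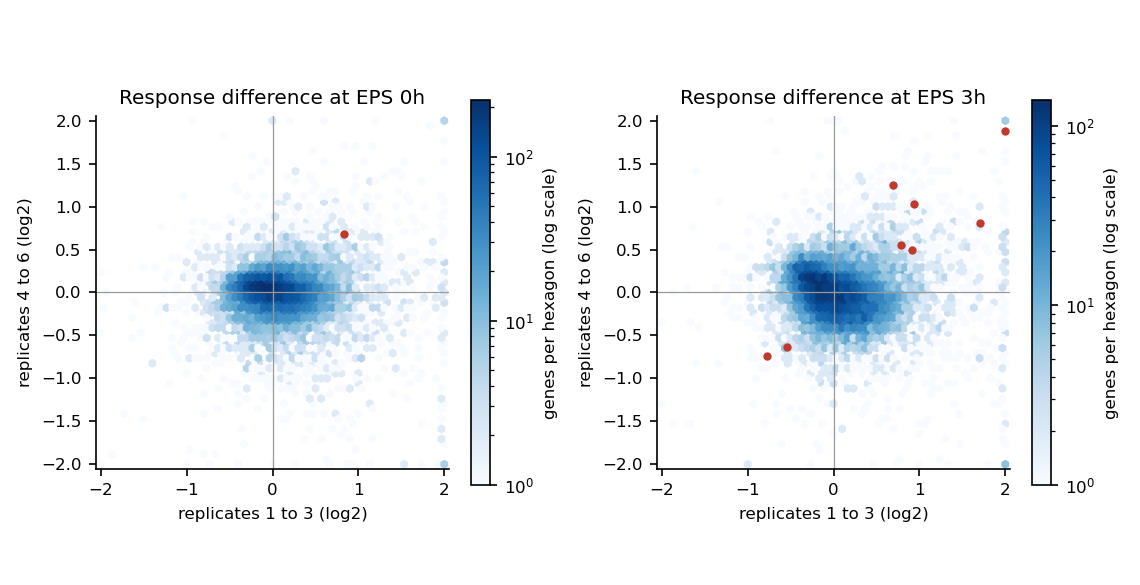
Response differences of 13995 genes in log2 units, estimated in replicates 1 to 3 (x axis) and in replicates 4 to 6 (y axis), are shown as counts per hexagon at EPS 0h (left) and EPS 3h (right), with values beyond 2 drawn at 2. The cloud has no positive slope (r = -0.013 and -0.067), and the red points, which passed an FDR of 0.05, lie in the quadrants of equal sign. They were called in a fit of both sets together, so their equal sign follows in part from the choice.

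The sets also differed in how many genes moved. Unadjusted p-values under 0.05 were found for 11.3% of the genes in replicates 1 to 3 and 3.44% in replicates 4 to 6 at EPS 0h, and for 14.9% and 6.59% at EPS 3h, although the median SE was 0.213 and 0.185 at EPS 0h. Of 370 genes above control at p under 0.01 in replicates 1 to 3 at EPS 0h, 59.2% were also above control in replicates 4 to 6, where 54.3% of all genes were. Of 475 such genes at EPS 3h, 41.1% were above control in replicates 4 to 6, against 48.4% of all genes. In the reverse choice, 35 of 42 genes (83.3%) chosen above control in replicates 4 to 6 at EPS 0h were above control in replicates 1 to 3, and 53 of 74 (71.6%) at EPS 3h, against 53.8% and 52.5% of all genes. Genes chosen below control in replicates 4 to 6 were below control in replicates 1 to 3 in 54.1% at EPS 0h and 51.9% at EPS 3h, against 46.2% and 47.5% of all genes. Those chosen below control in replicates 1 to 3 were below it in replicates 4 to 6 in 57.4% at EPS 0h, against 45.7%, and in 25.2% at EPS 3h, against 51.6%. A direct edgeR test of the difference between the sets passed for 0 genes at EPS 0h (0%), with 956 genes (6.83%) at an unadjusted p under 0.05, and for 1 gene at EPS 3h (0.00715%), with 2160 genes (15.4%). That gene, *Tcap*, which encodes the sarcomeric protein telethonin, was singled out after its value was seen. At EPS 3h, replicates 1 to 3 gave it a response difference of 0.14 and replicates 4 to 6 one of 1.87, which lie 1.73 apart (FDR = 0.0421).

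Gene lists for 41 pathways, complexes and families, holding 816 tested genes, were read for their counts and medians. One member passed an FDR of 0.05, *Sesn1* in the list of p53 targets, at both times. Members named below that the study does not name were chosen after their values were seen. Medians ran from -0.356 to 0.230 at EPS 0h and from -0.266 to 0.330 at EPS 3h, beside 0.006 and -0.005 over all genes tested, and 29 and 35 of the 41 lists lay within 0.1 of 0. The median had opposite signs in the 2 sets for 27 lists at EPS 0h and 24 at EPS 3h.

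Heat shock proteins and chaperones, which refold proteins in stressed cells, were strongly induced in both arms, and 19 of 22 rose in control and 19 in *Tug1* KD at each time at an FDR under 0.05. Their median response difference was 0.191 at EPS 0h, where replicates 1 to 3 gave 0.263, replicates 4 to 6 gave 0.0124 and replicate 4 was negative (-0.0328). It was 0.065 at EPS 3h, and the list median was positive in 6 of 6 replicate numbers at EPS 3h, from 0.061 to 0.173. None of the 22 passed the interaction test. *Hspa1a*, an inducible HSP70 gene, went from a median of 134 RPM at Rest to 1440 and 5390 RPM in control and from 97.2 to 1640 and 5920 RPM in *Tug1* KD, and its response differences, 0.58 directly after EPS and 0.64 after recovery, did not pass (FDR = 0.988 and 0.857). At EPS 0h its difference averaged 1.27 in replicates 1 to 3 and -0.05 in replicates 4 to 6.

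Lists of immediate early genes, among them transcription factors that stimulated cells induce first, gave no call. The 10 AP-1 and ATF factors had a median of -0.091 directly after EPS and 0.227 after recovery, when 9 of 10 were positive, among them *Jun* with 0.50 (FDR = 0.237) and *Atf3* with 0.12 (FDR = 0.970). The 3 NR4A receptors rose in both arms at both times, with medians of -0.100 and -0.027. *Nr4a3*, an orphan nuclear receptor gene that contraction induces, was at a mean of 2.60 RPM at Rest and 15.4 RPM at EPS 0h in control, and at 2.22 and 12.6 RPM in *Tug1* KD, a difference of -0.10 (FDR = 0.988). Kruppel-like factors, dual-specificity phosphatases and the EGR, IER and SRF list lay between -0.056 and 0.065 at both times. The EGR, IER and SRF list was not induced as a whole at EPS 0h. Of its 10 genes, 0 rose and 5 fell in control at an FDR under 0.05, with a median log2FC of -0.384. In *Tug1* KD 1 rose and 5 fell, with a median of -0.308. Of all 13995 genes, 3420 rose and 3562 fell in control and 3907 and 4055 in *Tug1* KD.

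Interferon response genes had a median of 0.330 over 24 genes at EPS 3h, and of 0.14 at EPS 0h. Without replicate 6 the medians were 0.169 and 0.00342, and without replicate 3 the EPS 0h median was 0.317. At EPS 3h, 16 of them fell and 2 rose in control, and 9 fell and 3 rose in *Tug1* KD at an FDR under 0.05. Of all 13995 genes tested, 4422 fell and 4146 rose in control, and 4514 fell and 4073 rose in *Tug1* KD. *Mx2* was among those that rose in both arms. *Oas2*, an oligoadenylate synthetase gene, had 1.17 at EPS 0h (FDR = 0.885) and 1.58 at EPS 3h (FDR = 0.241). The list median by replicate number was 0.525, 0.189, 0.012, 0.107, -0.045 and 0.978 at EPS 3h, with replicate 6 highest, and -0.242, 0.711, -0.201, 0.225, -0.193 and 0.710 at EPS 0h. Most p53 targets had negative values, unlike *Sesn1*. The median over 20 targets was -0.137 at EPS 0h and -0.177 at EPS 3h, with 16 and 15 of 20 negative, and the values of the cyclin gene *Ccng1* (-0.32 and -0.44), *Mdm2* (-0.14 and -0.27) and *Cdkn1a* (-0.22 and -0.16) did not pass.

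Ribosomal and respiratory chain lists had negative medians that were lowest in replicates 1 to 3. The 78 cytosolic ribosomal protein genes had a median of -0.161 at EPS 0h, with 77 negative, yet their list median was -0.540, -0.281 and -0.151 in replicates 1 to 3 and 0.221, -0.156 and -0.021 in replicates 4 to 6. At EPS 3h it was -0.317, -0.657 and -0.287 against 0.298, 0.155 and 0.427. Nuclear-encoded complex I subunits of the respiratory chain (37 genes) had -0.160 and -0.022, subunits of complexes II to V (41 genes) -0.153 and -0.034, and mitochondrial ribosomal proteins (77 genes) -0.093 and -0.070. In these 3 lists every replicate number from 1 to 3 was negative and every one from 4 to 6 was positive at EPS 3h. The 10 mtDNA-encoded subunits had -0.356 at EPS 0h and -0.266 at EPS 3h. Their list median was negative for 5 of 6 replicate numbers at EPS 0h and for 6 of 6 at EPS 3h, and none passed. The share of all counts on mitochondrial transcripts in replicates 1 to 3 was 1.24% in Rest control and 1.72% in Rest KD, 2.29% in EPS 0h control and 2.10% in EPS 0h KD, and 1.46% in EPS 3h control and 1.63% in EPS 3h KD. In replicates 4 to 6 the same groups, in that order, had 1.83% and 1.77%, 1.62% and 1.35%, and 1.32% and 1.03%. Its part in these differences was not tested.

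The 8 sarcomeric myosin heavy chains, the motors of contraction, had medians of -0.076 directly after EPS and -0.149 after recovery, when 7 of 8 genes and the list median of 5 of 6 replicate numbers were negative, and none passed. Medians within 0.1 of 0 were found for 6 further contractile and metabolic lists. Sarcomere structure genes had -0.044 and -0.041, calcium handling genes -0.021 and 0.002, glucose uptake and glycolysis -0.043 and -0.036, PPAR-responsive fatty acid genes -0.005 and -0.036, and hypoxia targets -0.026 and 0.009. For the mitochondrial calcium uniporter complex, which admits calcium to the matrix, the median over 9 genes was -0.058 and -0.097, and *Mcu*, the pore subunit, had 0.07 and 0.05. *Mcu* stood at a mean of 74.9, 73.6 and 69.8 RPM in control and 116.5, 120.5 and 113.6 RPM in *Tug1* KD over Rest, EPS 0h and EPS 3h, with a KD effect of 0.65, 0.72 and 0.70. The 95% confidence interval of its response difference was -0.15 to 0.29 at EPS 0h and -0.17 to 0.27 at EPS 3h.

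**Figure D5:**
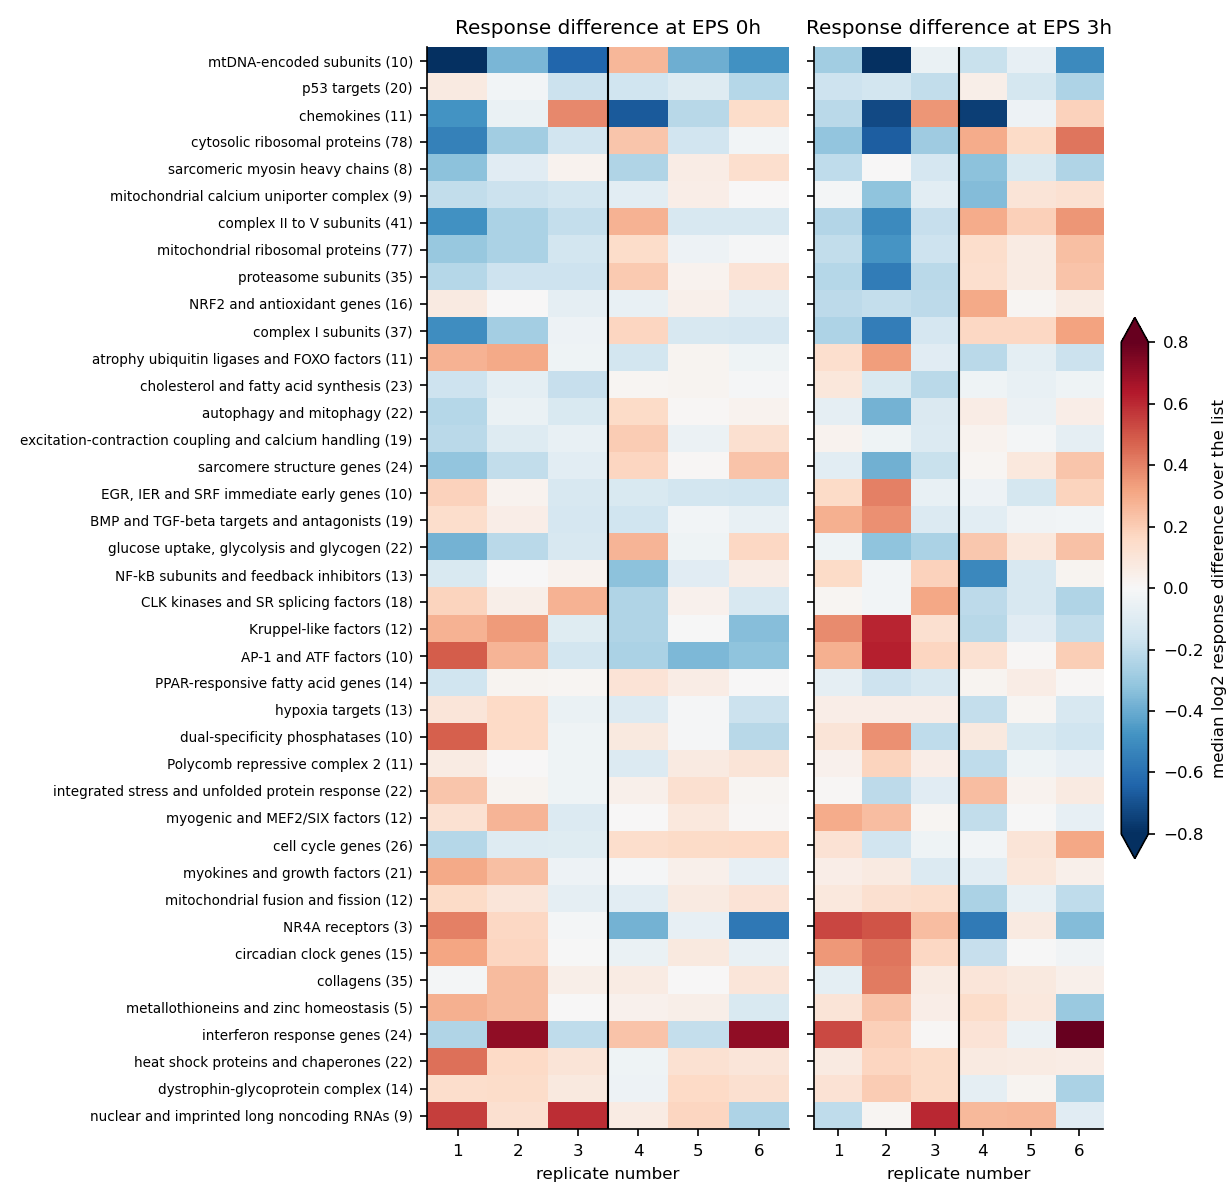
Each row is a gene list with its number of tested genes, each column a replicate number, and the colour the median log2 response difference over the list, from -0.8 (blue) to 0.8 (red), at EPS 0h (left) and EPS 3h (right). The black line parts replicates 1 to 3 from 4 to 6, and the lists of ribosomal proteins and of nuclear-encoded respiratory chain subunits at EPS 3h are blue to its left and red to its right, while the mtDNA-encoded subunits are blue on both sides.

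The study names 26 of the genes tested, some of them for their values in these libraries. None passed the interaction test at either time, and 20 at EPS 0h and 17 at EPS 3h differed by less than 0.25, with SEs from 0.0948 to 0.506. The widest values were those of *Esrrb*, an oestrogen-related receptor gene expressed between a mean of 0.2 and 1.9 RPM, with -1.54 and -1.62 (FDR = 0.813 and 0.329). Of these 26, *Esrrb*, *Ppargc1b* and *Ppp1r3c* had an unadjusted p under 0.05 by the edgeR test at both times. *Ppargc1b*, a coactivator gene, had 0.48 at EPS 0h (FDR = 0.885) and 0.42 at EPS 3h (FDR = 0.738). Fitted alone, replicates 1 to 3 gave it 0.69 and 0.85, and replicates 4 to 6 gave 0.30 and 0.008. Over Rest, EPS 0h and EPS 3h its mean was 8.75, 8.73 and 7.55 RPM in control. In *Tug1* KD it was 9.90, 13.9 and 11.7 RPM. *Pparg*, a lipid-sensing nuclear receptor gene, rose by 1.25 in control and 1.38 in *Tug1* KD at EPS 0h, a difference of 0.14 (95% confidence interval -0.12 to 0.40). *Vgll4*, a TEAD cofactor gene, rose in both arms, and its difference was 0.22 at EPS 0h and 0.16 at EPS 3h. *Dmd*, the dystrophin gene, stood at a mean of 1.23, 1.92 and 2.87 RPM in control and 6.62, 11.9 and 17.2 RPM in *Tug1* KD, and its response difference was 0.11 at EPS 0h and 0.04 at EPS 3h. The sets of replicates had opposite signs for *Dmd*. Replicates 1 to 3 averaged 0.483 at EPS 0h and 0.515 at EPS 3h, and replicates 4 to 6 averaged -0.232 and -0.399.

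Blunted and augmented genes can also be counted from group thresholds, without the interaction. Of 2801 genes that rose in control at EPS 0h by a log2FC above 0.32 at an FDR under 0.05, 104 were lower and 434 higher in *Tug1* KD than in control at that time at an FDR under 0.05. Of 3514 at EPS 3h, 198 were lower and 439 higher. Most of these genes differed in the same direction at Rest already, 95.2% of the 104, 91.7% of the 434, 93.4% of the 198 and 87.5% of the 439. Fewer passed an FDR of 0.05 in that direction at Rest, 60.6%, 44.7%, 31.8% and 51.5%. Of all 13995 genes, 1137 were lower and 1273 higher in *Tug1* KD at Rest at that FDR, and the median KD effect was -0.024. For the 104 lower genes the median KD effect was -0.391 at EPS 0h and -0.379 at Rest, which left a median response difference of -0.030. For the 434 higher genes it was 0.514 and 0.318, which left 0.144. At EPS 3h it was -0.353 against -0.173 at Rest for the 198 lower genes, with a median response difference of -0.154 and 31 of them at an unadjusted p under 0.05, and 0.499 against 0.379 for the 439 higher genes, with 0.085 and 56 of them. At EPS 0h, 8 of the 104 and 55 of the 434 had an unadjusted p under 0.05 by the edgeR test. Over all genes tested, 4.57% did at EPS 0h and 5.84% at EPS 3h. At an FDR under 0.05 the interaction passed for 0 of the 104, 0 of the 434, 1 of the 198 and 1 of the 439. Of all 13995 genes it passed for 1 above and 0 below control at EPS 0h, and for 6 above and 2 below at EPS 3h. The groups by threshold share the EPS libraries and the Rest control libraries with the interaction, so that these medians and counts are a description.

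The response differences varied with gene length and expression in replicates 1 to 3 and not in the same way in replicates 4 to 6. Of 5 bins of equal gene number, the bin with the longest genomic spans (69700 bases and over) had a median at EPS 0h of 0.184 for replicates 1 to 3 against 0.015 for replicates 4 to 6. Its values at EPS 3h were 0.184 and -0.109. The bin with the shortest spans had -0.068 and -0.001 directly after EPS, and -0.091 and 0.101 after recovery. The 824 lncRNAs had a median of 0.123 directly after EPS and 0.101 after recovery, and of 0.340 and 0.222 in replicates 1 to 3 against -0.060 and -0.026 in replicates 4 to 6. The bin of lowest expression, up to 3.63 RPM, had 0.226 and 0.230 in replicates 1 to 3 and -0.039 and 0.004 in replicates 4 to 6. Protein-coding genes were close to 0 at both times, at 0.001 and -0.009.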

How the data were processed

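RNA was taken from C2C12 myotubes, with 6 libraries in each of 6 groups, and sequenced from stranded poly-A selected libraries. Per the labels and the study's methods, the authors checked reads with FastQC 0.11.7, trimmed them with fastp 0.14.1 and aligned them with STAR 2.5 to GRCm39, and the deposited values are raw read counts per gene. The counting tool and its strand setting are not given in the sources used here, so overlapping genes can share reads. Genes without a symbol (1492, with 0.0327% of the counts) were kept under their identifier.

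Genes with at least 1 RPM in 12 or more libraries (13995) were kept. Counts were scaled by TMM and fitted with the edgeR 4.0.16 quasi-likelihood model in R 4.3.3, with a term for each of the 6 groups and the replicate number as a block. P-values were adjusted by Benjamini-Hochberg (FDR, threshold 0.05) over all genes tested. Standard errors were taken from the test statistic and the log2FC. Values per replicate number are differences of log2 RPM with a prior count of 2. All 36 libraries held between 17005079 and 24181167 counts, and counting error is largest for genes at a few RPM. Alternatives used limma 3.58.1 (voom), DESeq2 1.42.0, other scalings, filters and blocks, and fits without some libraries. The method was tested on simulated counts with the same added change in every replicate number. Response differences that vary between the sets, as found here, were not simulated. Coordinates come from a GENCODE annotation of GRCm39, which held 13946 of the genes tested.

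Named genes are, per time and direction, those past the FDR with at least 5 RPM in a group and the same sign in both sets of replicates, filled up to 10 by lowest p, together with the genes the study names and list members past the FDR. The members, gene lists and sets were chosen with earlier results of these data known. Some items are not reported here.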

Additional observations from a re-analysis of the deposited data

Results flagged for a closer look

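Of 216 groups of 6 replicate differences, 11 had a lowest or highest value whose gap to the next, divided by the range, exceeded Dixon's 95% critical value, which chance gives in about 1 of 20 groups, and 5 of the 11 values belonged to replicate 6. At EPS 0h these were -0.476 for *Mcur1*, a regulator of the mitochondrial calcium uniporter, and a median of 0.0671 for the genes lower after EPS. At EPS 3h they were -0.898 for *Arhgef26*, -1.2 for *Caap1*, -1.53 for *Depp1*, 0.692 for *Fndc10*, -0.349 for *Mcu* and 0.816 for *Vgll4*, and list medians of 0.0467 for p53 targets, -0.3 for metallothioneins and zinc homeostasis and 0.415 for collagens. In all of them the other 5 replicate numbers lay closer together.

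*Tcap*, the telethonin gene, was singled out because its response difference at EPS 3h differed between the sets, by 1.729 (FDR = 0.0421 by the edgeR test of the set difference). For 18 list medians all of replicates 1 to 3 lay on one side of 0 and all of replicates 4 to 6 on the other. That difference between the sets was not tested for the lists. Written as the mean of replicates 4 to 6 minus that of replicates 1 to 3, it was 0.334 for sarcomere structure genes, 0.197 for autophagy and mitophagy, 0.293 for cell cycle genes and 0.3 for proteasome subunits at EPS 0h. At EPS 3h it was positive for cytosolic ribosomal proteins (0.713), complexes II to V (0.588), complex I (0.531), proteasome subunits (0.479), mitochondrial ribosomal proteins (0.426), glucose uptake, glycolysis and glycogen (0.38), NRF2 and antioxidant genes (0.328), sarcomere structure genes (0.323) and PPAR-responsive fatty acid genes (0.151). It was negative for Kruppel-like factors (-0.542), circadian clock genes (-0.387), mitochondrial fusion and fission (-0.292), myogenic and MEF2 factors (-0.273) and Polycomb repressive complex 2 (-0.188).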

How the results depend on the processing

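Counts of genes past an FDR of 0.05 are given as above and below control at EPS 0h, then above and below at EPS 3h, where the reported counts are 1, 0, 6 and 2. Without the replicate block they were 0, 0, 1 and 0, and with a block for the 2 sets 1, 0, 1 and 0. DESeq2 gave 4, 0, 21 and 7, limma-voom 2, 0, 8 and 2, and upper quartile scaling 1, 0, 4 and 1. Without the filter on low counts (39727 genes) they were 16, 15, 24 and 13, and with only the groups compared in the fit 2, 0, 1 and 2. Replicates 1 to 3 alone gave 1, 0, 0 and 0, and replicates 4 to 6 alone 0, 0, 1 and 0. A block within each condition, chosen after seeing the data, gave 5, 1, 15 and 6, and leaving out EPS 3h replicate 3, chosen likewise, 2, 0, 1 and 1. Leaving out 1 replicate number at a time gave 0 to 1, 0, 1 to 6 and 0.

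The joint test of both times, which passed for 2 genes, passed for 1 without the replicate block, 60 without the filter, 0 in replicates 1 to 3, 1 in replicates 4 to 6, 21 with a block within each condition and 1 to 3 when 1 replicate number was left out. The change between the times passed for 16 genes without the filter. The set difference at EPS 3h passed for 0 genes without the replicate block (1623 at an unadjusted p under 0.05).

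Same-numbered libraries deviated together with r over 0.1 in 81 of 90 pairs, and in every pair for 8 of 15 pairs of groups, so the numbers are not shown to pair all groups. No alternative changed the sign of a called gene. Of 119 other gene values, 28 passed under at least 1 of 19 alternatives and 30 changed sign. Of 94 list values, 70 changed sign. Where counts moved, the cause was not tested. Genes under 5 RPM had the widest differences, and depth limits them.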
